A study of Mus musculus with 12 samples.

Results

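The autophagy machinery was described here as 33 genes, listed by symbol, whose products build the autophagosome or tie cargo to it. Each symbol was matched to a row of the deposited count table through a table of gene names, and 33 of 33 were found among 55401 gene IDs. All 33 passed the filter on low counts, so every one of them is among the 12620 genes tested. They were ordered by role: 5 initiation genes, 6 nucleation genes, 5 membrane supply genes, 7 conjugation genes, the 5 LC3 and GABARAP genes and 5 receptor genes.

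The libraries were bulk RNA sequencing of macrophages grown from the bone marrow of mice on the C57BL6 background. The young group held 6 libraries from mice aged 8 weeks and the old group 6 libraries from mice aged 12 months. All 12 libraries came from cells given macrophage colony-stimulating factor (M-CSF) at 20 ng/mL and used on day 7, and no genotype, sex or further treatment is labelled. The series concerns macrophages that meet nanoparticles, but none of these libraries is labelled as having met any, so age is the factor compared. The labels number the libraries as biological replicates and do not tie each to its own animal, so the p-values below measure only the spread between these libraries.

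Macroautophagy wraps part of the cytoplasm in a double membrane and delivers it to the lysosome. A kinase complex built on ULK1 starts the process, a lipid kinase complex built on Beclin 1 marks the membrane, and ubiquitin-like reactions then attach LC3 and GABARAP proteins to the growing membrane, where receptors that hold cargo bind them. Macrophages use it to break down bacteria, lipid droplets and damaged mitochondria, and they also use the conjugation enzymes, without the ULK1 complex, to put LC3 on phagosomes.

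Assigned counts were 22.2 to 25.2 M in each young library (with M for 1000000) and 19.3 to 22.4 M in each old one. The macrophage label was checked on 10 markers, led by Lyz2, whose summed level (in CPM, counts scaled to a library total of 1000000) was 27800 to 45818 CPM (young) and 33185 to 44360 CPM (old). Other cell types were read from their own lists. Neutrophil genes summed to 73.3 to 221 CPM (young) and 125 to 233 CPM (old). These sums rest mainly on Csf3r, with means of 121 CPM (young) and 136 CPM (old). The next highest, Mmp8, was at 16.2 and 17.6 CPM, and Ly6g was at 0.0144 and 0.0156 CPM. The B cell genes Pax5 and Ebf1 were at 0 throughout, which allows up to 0.119 to 0.155 CPM per library. All 7 neutrophil genes that were tested had positive log2 fold changes and 0 passed the threshold, and their part in the values below was not tested. Old replicate 6 stood apart: its T and NK cell genes summed to 36.7 CPM, with Cd8a at 12.6 CPM, while the sum was at most 0.271 CPM in each other library. Its level of Atp6v0d2, a proton pump subunit and osteoclast marker, was 335 CPM against 57.7 to 143 CPM elsewhere. Young replicate 6, old replicate 2 and old replicate 3 carried the highest cell cycle levels, with a mean over 30 cell cycle genes of 6.71, 6.02 and 5.46 log2 CPM against 4.02 to 5.10 in the others. In bulk RNA, fewer cells of a type and less RNA per cell cannot be told apart.

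The first question was whether the autophagy genes differ in level between young and old macrophages. Every stage of the pathway, from the ULK1 complex to the receptors, was present in both groups, and no autophagy gene passed the threshold in either direction. The largest estimated difference was that of Rb1cc1, the scaffold of the ULK1 complex, at 1.25 times the young level in old libraries. At the other end, Atg10, an enzyme of the conjugation step, was at 0.91 times the young level. For 32 of 33 genes the 95% interval of the difference lay within 1.5-fold in both directions, Rb1cc1 being the exception.

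With edgeR's quasi-likelihood test, 0 of 33 autophagy genes passed an adjusted p of 0.05, against 0.0158% of all genes tested, which were 2 genes. At an unadjusted p below 0.05 the count was again 0 of 33, against 5.47% of all genes tested. DESeq2 called 0 of the 33 and 11 genes in all (0.0873%), with 0 of the 33 at an unadjusted p below 0.05 against 6.03% of all genes. limma voom with quality weights called 0 of the 33 and 5 genes in all (0.0396%), with Rb1cc1, Gabarap and Becn1 at an unadjusted p below 0.05 (12.1% of all genes tested by that tool). The log2 fold change, old minus young, was positive for 16 genes and negative for 17, with a median of -0.0005 beside -0.01 over all genes tested. With library size as the only scaling 20 of the 33 were positive, so the sign of these small estimates depends on the scaling. Each of the 33 genes had young and old libraries at overlapping levels, while 0.206% of all genes tested had groups that did not overlap.

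**Figure D1:**
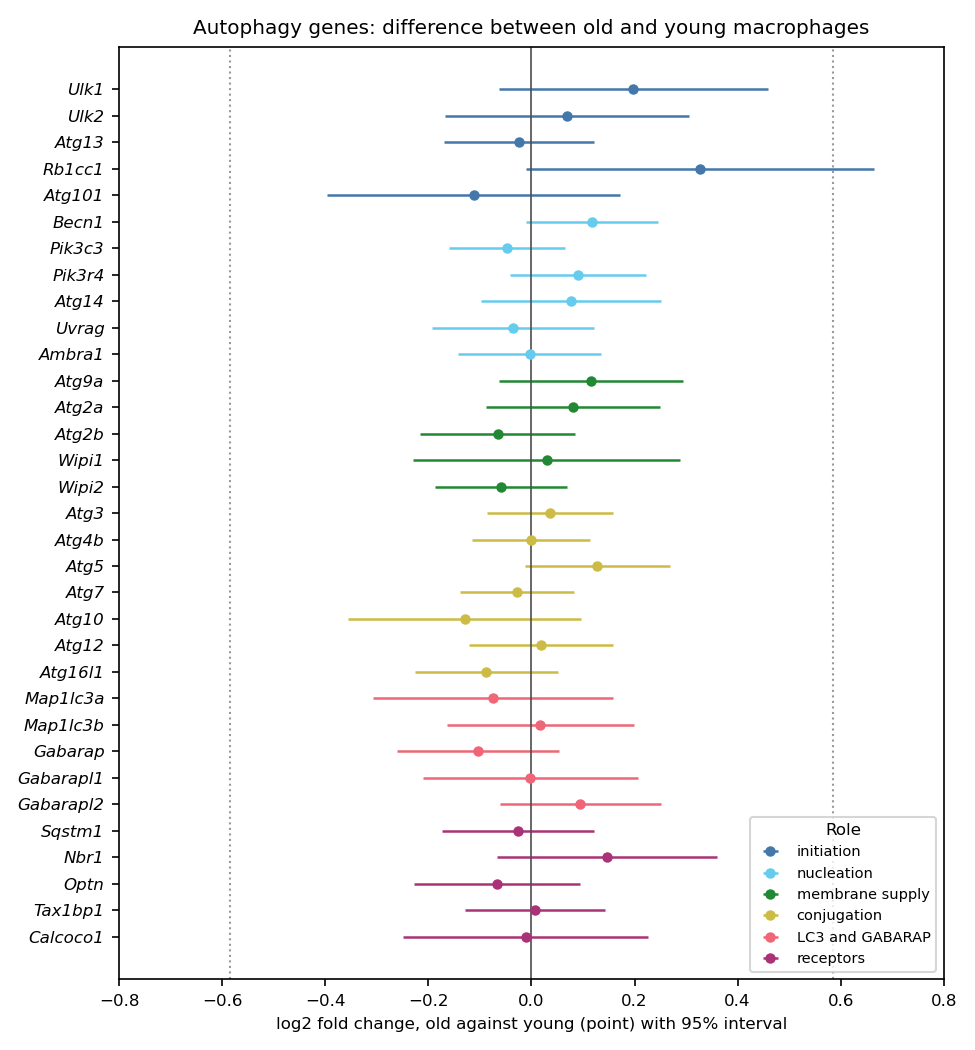
Log2 fold change (old minus young) of each autophagy gene with its 95% interval, from edgeR over all 12 libraries and coloured by role; dotted lines mark a 1.5-fold difference. Every interval includes 0, and only that of Rb1cc1 runs past a dotted line.

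How narrowly the data bound these differences was read from the intervals. For 23 of 33 genes the 95% interval stayed within 1.2-fold either way, against 23.1% of all genes tested and 39.7% of genes with a mean of at least 20 CPM. The genes whose intervals reached past 1.2-fold were Ulk1, Ulk2, Rb1cc1 and Atg101 of the initiation complex, and Atg9a, Wipi1, Atg5, Atg10, Map1lc3a and Nbr1. An interval can do so by its width or by where its estimate lies. Within 1.5-fold lay 32 of 33, against 70.1% of all genes tested and 90.9% of those of at least 20 CPM. A p that misses the threshold does not show that the ages are alike, and these intervals are the range of differences the counts allow.

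Levels of different genes were compared as CPM per kb of exon, which divides by the length of all annotated exons of a gene merged, not by that of the isoform expressed. The highest transcripts encode GABARAP proteins and p62, which are themselves carried to the lysosome. Gabarap was at 368 CPM per kb over all libraries, Sqstm1 at 246 and Gabarapl1 at 102. On these lengths the ranges of the 3 genes overlapped neither each other nor that of the next gene, Map1lc3b, at 34.9 CPM per kb. Opposite-strand genes share 17.3% of the exon bases of Sqstm1 and 28.3% of those of Gabarapl1, against 0% for Gabarap. Reads in shared bases count for neither gene while the length includes them, so the gap between Gabarap and Sqstm1 is uncertain. From Map1lc3b down to Atg16l1, at 4.22 CPM per kb, each gene overlapped its neighbour in the order, so that order holds only in coarse steps. Lowest were the lipid transfer gene Atg2b, at 2.40, and Rb1cc1, at 2.27 CPM per kb, which overlapped each other and lay below all libraries of Atg16l1. The summed level of the 33 genes was 3438 to 3959.5 CPM (young) and 3553 to 3902 CPM (old), and these ranges overlap.

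**Figure D2:**
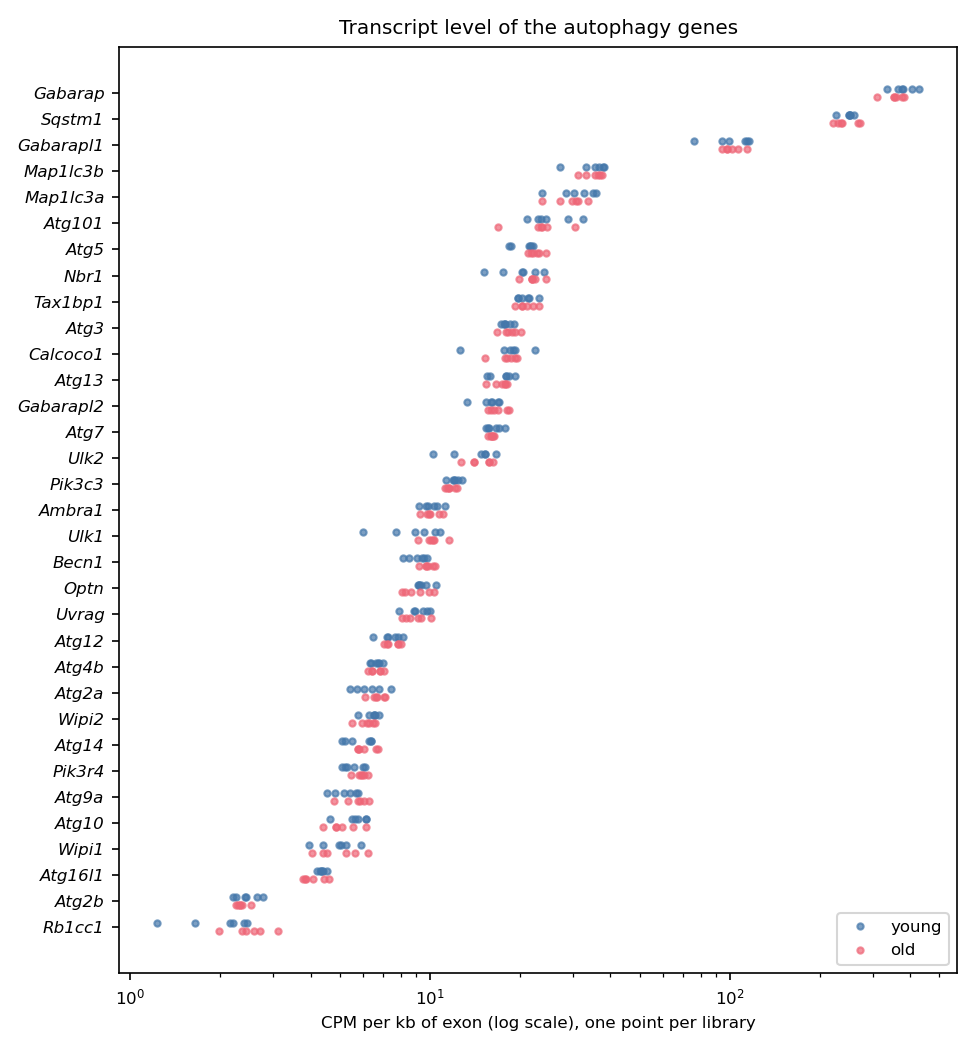
Level of each autophagy gene in CPM per kb of exon on a log scale, 1 point per library, ordered by the mean over 12 libraries. Gabarap, Sqstm1 and Gabarapl1 stand above the rest, and young and old points overlap for every gene.

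The initiation complex had the widest range of differences of any role, from -0.11 for Atg101 to 0.33 for Rb1cc1 on the log2 scale, and 0 of its 5 genes passed the threshold. Rb1cc1 (ENSMUSG00000025907, chr1:6206197-6276648, GRCm38, plus strand) encodes FIP200, the large scaffold on which the kinases assemble. Its level was 18.1 CPM in the lowest, 32.0 in the median and 36.2 in the highest young library, and 29.1, 37.0 and 45.6 CPM in the old ones. Young replicates 5 and 6 lay below every old library, and old replicates 4, 5 and 6 lay above every young one. The group means were 29.6 ± 7.04 and 37.2 ± 5.51 CPM (SD, n = 6 each), a log2 fold change of 0.33 with a standard error of 0.16 and a 95% interval of -0.01 to 0.66. The edgeR p was 0.0571 and the adjusted p 0.77, the lowest p of the 33. An opposite-strand gene, 4732440D04Rik, overlaps 3.8% of its exon bases. Of the 50-base stretches of the Rb1cc1 reference transcript, searched on both strands, 12% occur in 2 other gene models, which include 4732440D04Rik. Within each group the lowest Rb1cc1 level was in the library with the highest cell cycle level, young replicate 6 (18.1 CPM) and old replicate 2 (29.1 CPM). The other libraries did not follow that order. Young replicate 5, with the lowest young cell cycle level (4.30 log2 CPM), had the next lowest young Rb1cc1 level, 24.3 CPM. Old replicate 3, with a cell cycle level of 5.46 log2 CPM, was at 35.8 CPM. With the cell cycle mean as a covariate the log2 fold change was 0.26 (edgeR adjusted p = 0.65), and with the 3 libraries of highest cell cycle level left out it was 0.31 (edgeR adjusted p = 0.20). Without young replicate 6 it was 0.22, and without old replicate 6, the library with T cell transcripts, it was 0.26, with edgeR adjusted p of 0.78 and 1.00.

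Ulk1 (ENSMUSG00000029512, chr5:110784488-110810097, GRCm38, minus strand) encodes the serine/threonine kinase that starts autophagosome formation. It was at 38.9, 59.9 and 70.3 CPM in the lowest, median and highest young library, and at 59.4, 65.8 and 74.8 CPM in the old ones. Young replicates 1, 5 and 6 lay below every old library, and the other young libraries overlapped the old range. Its log2 fold change was 0.20 (standard error 0.12, 95% interval -0.06 to 0.46, edgeR adjusted p = 0.77). With the 3 libraries of highest cell cycle level left out it was 0.06, and without young replicate 6 alone it was 0.11. Its close relative Ulk2, which shares the role in part, was at 83.9 ± 14.4 CPM (young) and 88.0 ± 8.31 CPM (old; SD, n = 6 each), and its lowest young value was again young replicate 6. Atg13, a partner of the kinase in the complex, was at a median of 78.4 CPM in the young and 76.9 CPM in the old group. It had the smallest spread of the complex.

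Atg101, which stabilises Atg13, was the initiation gene with the opposite pattern across libraries. Its lowest, median and highest levels were 33.8, 38.2 and 51.8 CPM (young) and 26.9, 37.6 and 48.5 CPM (old). The highest library of each group was the one with the highest cell cycle level, young replicate 6 and old replicate 2, where Rb1cc1 was lowest. Old replicate 6, at 26.9 CPM, was below all others, and there Rb1cc1 was highest. The log2 fold change of Atg101 was -0.11 (95% interval -0.40 to 0.17) with all libraries, and -0.03 both without young replicate 6 and without old replicate 6. With the cell cycle mean as a covariate it was -0.05, and with the 3 libraries of highest cell cycle level left out it was -0.15 (edgeR adjusted p = 0.47). The part of the T cell transcripts of old replicate 6 in its values was not tested.

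The nucleation complex, which makes phosphatidylinositol 3-phosphate at the site of assembly, had 0 of 6 genes past the threshold and log2 fold changes of -0.05 to 0.12. Becn1 (ENSMUSG00000035086, chr11:101285952-101302286, GRCm38, minus strand) encodes Beclin 1, its scaffold. The lowest, median and highest levels were 57.7, 65.1 and 69.1 CPM in young libraries and 64.9, 69.3 and 73.6 CPM in old ones. The old range began within the young range and ended above it. This gave a log2 fold change of 0.12 with a standard error of 0.06 and a 95% interval of -0.01 to 0.25. The edgeR p was 0.0703 and the adjusted p 0.77. Reads were counted without strand, 43.9% of the exon bases of Becn1 are shared with Cntd1 on the opposite strand, and reads in shared bases count for neither gene, so its level per kb is uncertain.

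Pik3c3, the lipid kinase itself (VPS34), had the smallest spread of all 33 genes. Young libraries ran from 50.5 to 57.2 CPM around a median of 54.0, and old libraries from 50.1 to 55.1 around 51.6. The ranges cover each other over most of their length, and the 95% interval of the log2 fold change was -0.16 to 0.07. Pik3r4, the regulatory kinase VPS15 that binds it, was at 53.5 ± 3.95 CPM (young) and 56.9 ± 2.46 CPM (old). Atg14, which brings the complex to the autophagosome, was at 25.1 ± 2.57 and 26.4 ± 1.86 CPM. Uvrag, which takes the place of Atg14 in the endosomal form of the complex, was at 82.7 ± 6.95 and 80.6 ± 6.80 CPM, with 17.6% of its exon bases under another gene. Ambra1, a Beclin 1 regulator, had nearly equal means of 62.1 ± 4.42 and 62.0 ± 4.07 CPM (SD, n = 6 each group for all 4). For these last 4 genes the log2 fold changes were between -0.04 and 0.09, and their edgeR adjusted p values were 0.77 or above.

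The membrane supply genes carry lipid to the growing membrane and read its phosphoinositide mark. Of these 5 genes 0 passed the threshold, with log2 fold changes from -0.07 to 0.12. Atg9a, the transmembrane scramblase on the vesicles that seed the membrane, was at 26.1, 30.6 and 33.2 CPM in the lowest, median and highest young library and at 27.7, 33.5 and 36.0 CPM in the old ones. In both groups replicate 1 was the lowest, and the ranges overlapped over most of their length. The exons of Atg9a share 32.6% of their bases with neighbouring genes, so its level per kb is uncertain. Its partners Atg2a and Atg2b, which move lipids along a protein bridge, were at 48.5 ± 5.61 and 33.1 ± 3.00 CPM in young libraries. In old libraries Atg2a was at 51.3 ± 2.86 and Atg2b at 31.6 ± 1.27 CPM (SD, n = 6 each). Wipi2 binds the lipid mark and recruits ATG16L1, and its means were 67.4 ± 3.61 and 64.7 ± 4.01 CPM. Wipi1, a second reader of the mark, was at 17.4 to 25.9 CPM (young) and 17.8 to 27.5 CPM (old). The high Wipi1 values were replicate 2 of each group, and the low ones young replicate 1 and old replicate 6.

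The conjugation genes encode the enzymes and carriers that attach LC3 to lipid, and as a group they had the smallest spread between libraries of the same age. Of the 7 genes 0 passed the threshold, and the log2 fold changes ran from -0.13 to 0.13. Atg7 (ENSMUSG00000030314, chr6:114643097-114860614, GRCm38, plus strand), the E1-like enzyme that activates both ubiquitin-like proteins, was at 107, 113 and 124 CPM in the lowest, median and highest young library and at 109, 112 and 114 CPM in the old ones. The old libraries fell inside the young range, and the 95% interval of the log2 fold change was -0.14 to 0.08. Atg3, the E2-like enzyme that hands LC3 to lipid, was at 56.9 ± 2.11 CPM (young) and 58.3 ± 3.66 CPM (old; SD, n = 6 each). Atg4b, the protease that trims LC3 for use and frees it again, had a mean of 54.8 CPM in both groups, with SDs of 2.13 and 2.56. Its log2 fold change was -0.0005.

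Atg5 (ENSMUSG00000038160, chr10:44268358-44364291, GRCm38, plus strand) joins ATG12 and ATG16L1 in the complex that directs LC3 to the membrane. Its lowest, median and highest levels were 43.1, 50.5 and 52.1 CPM in young libraries and 49.96, 52.7 and 57.1 CPM in old ones. Young replicates 5 and 6 lay below every old library, and the rest overlapped. Its log2 fold change was 0.13 with a standard error of 0.07 and a 95% interval of -0.01 to 0.27. The edgeR p was 0.0717 and the adjusted p 0.77. Its conjugation partner Atg12 was at 57.2 ± 4.57 and 58.0 ± 3.10 CPM, a log2 fold change of 0.02. Atg16l1, which anchors the pair, was at 41.9 ± 1.12 and 39.4 ± 3.33 CPM, a log2 fold change of -0.09. So the 3 subunits of the complex had estimates of different sign, none past the threshold. Atg10, the E2-like enzyme that joins ATG12 to ATG5, was the least counted of the 33, at 9.66 ± 0.935 and 8.84 ± 1.03 CPM, or 161 to 254 counts a library. Its 95% interval, -0.36 to 0.10 on the log2 scale, was one of the wider ones.

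TFEB, TFE3 and MITF are related transcription factors known for switching on lysosomal and autophagy genes through a motif that contains CACGTG, so the promoters of the autophagy genes were searched for it. The promoters are RefSeq's on GRCm38.p6, 250 bases before to 50 after each start site, and 27 of 33 genes had one. CACGTG, which reads the same on both strands, was found in 4 of 27, those of Atg3, Atg5, Atg7 and Atg14, or 14.8% against 8.09% of 27025 genes with a promoter window. The longer TCACGTGA, also the same on both strands and always containing CACGTG, was found in Atg3 (3.7% against 1.12%). The FOXO motif GTAAACA, searched on both strands, was found in 0 of 27 promoters (4.05% of all), and the CRE motif TGACGTCA in Atg5 (3.7% against 2.03%). A match is a stretch of letters and not a bound site, and a window without one says only that these letters are not in it. The sequences below show the letters around the motif, which is in capitals, each read 5′ to 3′ on the strand of its gene.
Atg3, chr16:45158727-45158794, plus strand: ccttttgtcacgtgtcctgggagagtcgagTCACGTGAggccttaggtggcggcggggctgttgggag
Atg7, chr6:114670934-114670999, plus strand: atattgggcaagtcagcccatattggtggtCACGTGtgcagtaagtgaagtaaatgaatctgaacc
Atg5, chr10:44268295-44268338, plus strand: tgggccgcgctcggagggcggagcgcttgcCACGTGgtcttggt
Atg14, chr14:47568430-47568465, minus strand: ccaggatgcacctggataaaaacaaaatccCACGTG

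Atg3 carries CACGTG a second time in the lower case letters before the marked motif. The marked motif begins 72 bases before the start site in Atg3, 132 in Atg7, 14 in Atg5 and 1 in Atg14. RefSeq's start sites for Atg3, Atg7 and Atg14 lie inside the longer gene spans of the Ensembl annotation used for counting. None of these 4 genes passed the threshold between ages, nor did the factors: Tfeb was at 97.0 ± 14.7 CPM (young) and 96.0 ± 6.47 CPM (old), Tfe3 at 195 ± 19.7 and 199 ± 12.0 CPM, and Mitf at 49.5 ± 9.86 and 50.2 ± 5.57 CPM (SD, n = 6 each).

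The LC3 and GABARAP genes encode the small proteins that coat the membrane, and Gabarap was the most abundant transcript of the 33 per kb. Of the 5 genes 0 passed the threshold. Gabarap (ENSMUSG00000018567, chr11:69991143-69994951, GRCm38, plus strand) was at 615, 697 and 788 CPM in the lowest, median and highest young library and at 570.0, 656 and 702 CPM in the old ones. The number 6 library was the lowest of each group, and the ranges overlapped. On the log2 scale the fold change was -0.10 with a standard error of 0.07 (95% interval -0.26 to 0.05, edgeR adjusted p = 0.77). With the 3 libraries of highest cell cycle level left out it was -0.16 (edgeR adjusted p = 0.25), and without old replicate 6 it was -0.06.

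Map1lc3b (ENSMUSG00000031812, chr8:121590361-121598760, GRCm38, plus strand) encodes LC3B, the usual marker of autophagosomes. Its lowest, median and highest levels were 204, 272 and 285 CPM in young libraries and 234, 270.3 and 283 CPM in old ones. Again the lowest of each group was its number 6 library. The log2 fold change was 0.02 with a 95% interval of -0.16 to 0.20. Its relative Map1lc3a was at 36.6 ± 5.33 CPM (young) and 34.7 ± 4.11 CPM (old). Per kb the pair was at 34.9 and 30.2 CPM per kb, which rests on the merged exon lengths of 7517 and 1181 bases. Their longest annotated transcripts have 4138 and 1112 bases, so how the pair compares depends on the length used. Gabarapl1 was at 153, 213 and 233 CPM in the lowest, median and highest young library and at 189, 200.5 and 229 CPM in the old ones. Young replicate 6 was below every old library. Gabarapl2 was at 36.7 ± 3.12 and 39.2 ± 2.60 CPM (SD, n = 6 each), with a log2 fold change of 0.09. Of the 50-base stretches of its reference transcript, 17% occur in 4 other gene models as well, and reads that align to several places were not counted, so its level is uncertain. The same holds for 9.39% of the stretches of Map1lc3b and for none of those of Gabarap and Map1lc3a. For Gabarapl1, 28.3% of exon bases are shared with an overlapping gene.

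The receptors bind cargo marked by ubiquitin or lying on the endoplasmic reticulum and link it to LC3, and 0 of the 5 passed the threshold. Sqstm1 (ENSMUSG00000015837, chr11:50199366-50210827, GRCm38, minus strand) encodes p62, which is itself degraded with its cargo. It was at 756, 839.6 and 872 CPM in the lowest, median and highest young library and at 741, 789.9 and 914 CPM in the old ones. Young replicate 1 lay apart from the other young libraries at the low end, inside the old range. The log2 fold change was -0.03 with a standard error of 0.07 (95% interval -0.17 to 0.12, edgeR adjusted p = 0.94). The exons of Sqstm1 share 17.3% of their bases with Mrnip.

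Nbr1, a relative of p62 that acts with it, had a log2 fold change of 0.15. It was at 104, 139.7 and 164 CPM in the lowest, median and highest young library and at 136, 151 and 168 CPM in the old ones. Young replicate 6 was the lowest library and old replicate 6 the highest, as for Rb1cc1. The 95% interval of that fold change was -0.07 to 0.36 (edgeR adjusted p = 0.77), and without young replicate 6 the estimate was 0.08. Tax1bp1, a receptor for ubiquitin-marked aggregates and bacteria, was at 209 ± 13.3 CPM (young) and 209.9 ± 13.8 CPM (old). Optn, which binds damaged mitochondria and bacteria, was at 35.7 ± 1.98 and 34.1 ± 3.40 CPM. Calcoco1, a receptor for the endoplasmic reticulum, was at 105 ± 18.2 and 104 ± 8.69 CPM (SD, n = 6 each), with young replicate 6 the lowest at 72.4 CPM. Its log2 fold change was -0.01 with all libraries, -0.10 without young replicate 6 and -0.15 with the 3 libraries of highest cell cycle level left out.

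How far libraries of the same age differ was described as the SD of log2 CPM within groups. The median over the 33 genes was 0.115, beside 0.224 over all genes tested and 0.162 over genes of at least 20 CPM, a level that 32 of 33 reach (the exception being Atg10). By role, the conjugation genes had a median SD of 0.089 and the nucleation genes 0.092, while the initiation genes had 0.237. The membrane supply genes lay between at 0.13, the receptors at 0.115 and the LC3 and GABARAP genes at 0.149. The smallest SDs were those of Pik3c3 (0.0571), Atg7 (0.0600) and Atg4b (0.0618). The largest were those of Rb1cc1 (0.313), Atg101 (0.252) and Ulk1 (0.237), all of the ULK1 complex. These are values of 33 genes in the same 12 libraries, and no test was made of a difference between roles.

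**Figure D3:**
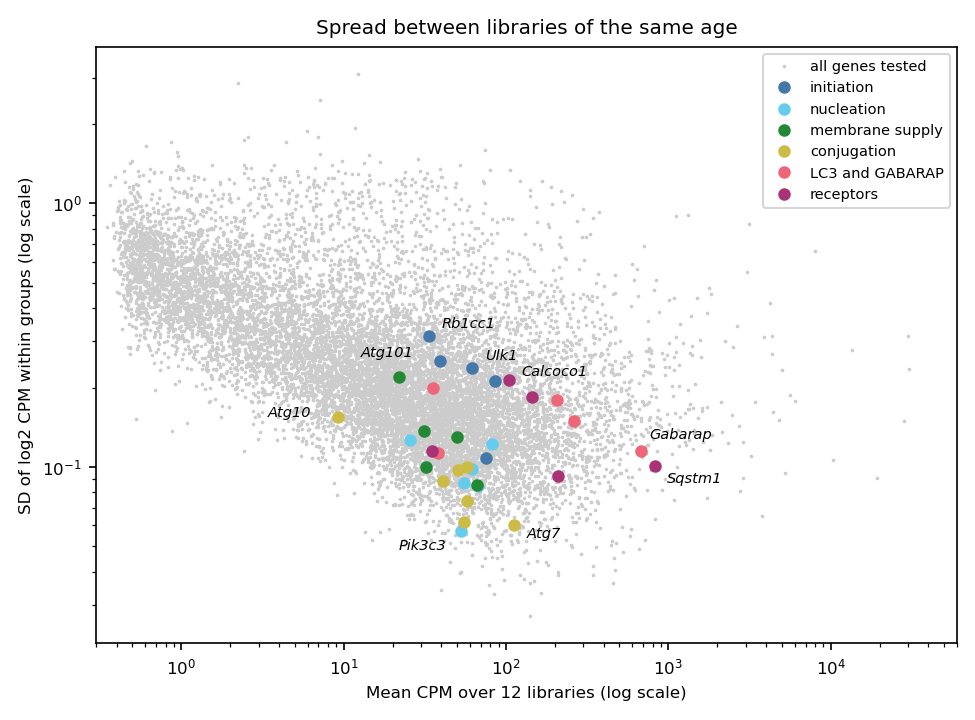
SD of log2 CPM within age groups against mean CPM over 12 libraries, both on log scales, for all genes tested (grey) and the autophagy genes (coloured by role). Most autophagy genes lie in the lower part of the cloud at their level, with Rb1cc1, Atg101 and Ulk1 highest among them.

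The lowest and highest value of each gene within its age group were counted by library. Young replicate 6, the library of highest cell cycle level, held the lowest young value for 17 of 33 autophagy genes (51.5%), against 31.5% of all genes tested and 37.1% of those of at least 20 CPM. It also had the lowest summed macrophage markers of the 12 libraries (27800 CPM, the next being old replicate 2 at 33185), the lowest neutrophil sum (73.3 CPM) and the highest young sum of monocyte and progenitor markers (80.6 CPM). Their part in the autophagy values of this library was not tested. It was at least 1.2-fold below the mean of the other young libraries for 8 genes, or 24.2%, against 29.2% of all genes tested and 27.7% of those of at least 20 CPM, so that share was not above the background. These 8 were Rb1cc1, at 0.567 times that mean, Ulk1 at 0.632, Calcoco1 at 0.653, Ulk2 at 0.692, Gabarapl1 at 0.708, Nbr1 at 0.724, Map1lc3a at 0.732 and Map1lc3b at 0.750. Atg101 was the 1 gene of 33 as far above it, at 1.34 times, against 29.7% of all genes tested and 23.8% of those of at least 20 CPM. The 1.2-fold limit was chosen after the values were seen. Old replicate 2 had the highest cell cycle level of the old group (6.02 log2 CPM). It held the lowest old value for 8 genes (24.2%, against 27.8% of all genes tested) and the highest for 7 (21.2%, against 29.2%). The 33 genes summed to 3902 CPM there, the highest old sum, and to 3438 CPM in young replicate 6, the lowest young sum. The cause of that contrast was not tested. Old replicate 6, the library with T cell and Atp6v0d2 transcripts, held the lowest old value for 12 genes (36.4%, against 26.2% of all genes tested and 31.5% of those of at least 20 CPM), among them Gabarap, Map1lc3b, Gabarapl1 and Sqstm1. It held the highest for 7 (21.2%, against 26.6% and 28.2%), among them Rb1cc1, Atg5 and Nbr1. Young replicate 2 held the lowest young value for 0 genes, against 11.3% of all genes tested, and the highest for 10 (30.3%, against 10.9% of all genes tested and 9.11% of those of at least 20 CPM). Old replicate 3 held the highest old value for 9 genes (27.3%, against 10.3% and 7.43%). Young replicate 5 held the highest young value for 9 genes (27.3%, against 19.9% and 25.2%).

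**Figure D4:**
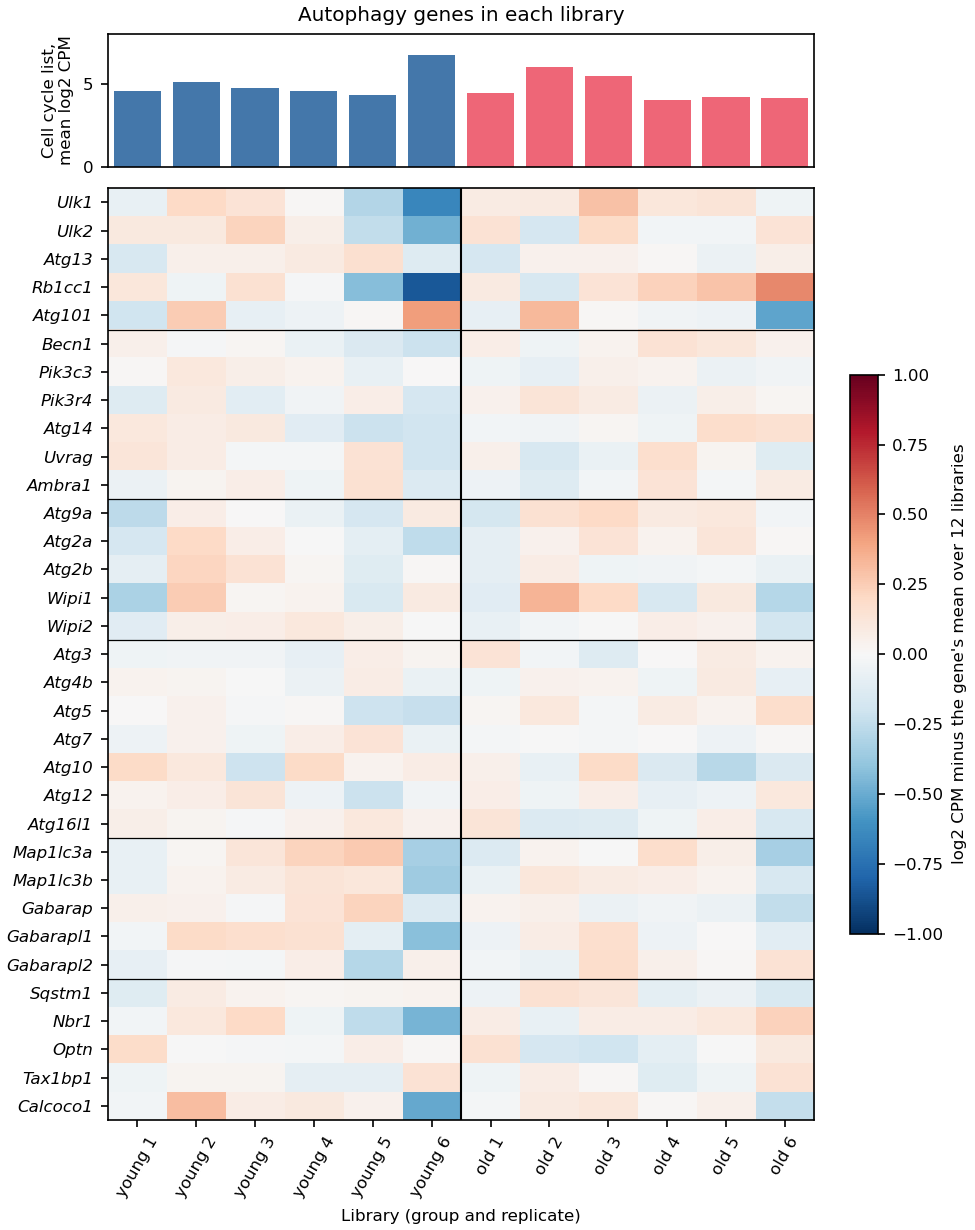
Log2 CPM of each autophagy gene in each library minus its mean over 12 libraries (colour, red above and blue below the mean), grouped by role, under bars of the mean log2 CPM of 30 cell cycle genes. The deepest blue is Rb1cc1 in young replicate 6, which has the tallest bar, and the colours do not divide at the line between young and old.

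The rest of the pathway was read from further lists. Of 19 other core autophagy genes, all tested, 0 passed the threshold and the median log2 fold change was 0.04. Atg4c, a relative of Atg4b, had the lowest p of this list, at 10.3 ± 1.92 CPM (young) and 14.3 ± 3.08 CPM (old; SD, n = 6 each), a log2 fold change of 0.48 with an edgeR p of 0.0138 and an adjusted p of 0.77. Rab1a, a small GTPase of early secretory traffic, was the most abundant of them per kb, at 290.5 ± 17.8 and 294 ± 9.16 CPM. Of 21 other cargo receptors 19 were tested and 0 passed, with a median of 0.06. Retreg1, a receptor for the endoplasmic reticulum, had the lowest p there, at 65.7 ± 11.9 and 78.9 ± 10.6 CPM, with an edgeR p of 0.0448 and an adjusted p of 0.77. Lgals3, which encodes galectin-3, a sensor of broken lysosomes, was the most abundant per kb at 5076 ± 709.8 and 4580 ± 260.5 CPM. The receptor gene Calcoco2 had 0 counts in every library, which allows up to 0.119 to 0.155 CPM.

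Of 17 genes for fusion with the lysosome 0 passed, with a median log2 fold change of 0.02. Epg5, a tether of autophagosomes to late endosomes, had the lowest p, at 7.60 ± 1.24 CPM (young) and 9.89 ± 2.44 CPM (old), with an edgeR p of 0.0429 and an adjusted p of 0.77. Lamp1, the lysosomal membrane protein, was the most abundant per kb at 3221 ± 298 and 3258 ± 129 CPM. Of 27 upstream regulators 25 were tested and 0 passed, with a median of 0.02. Rragc and Rragd encode the GTPases that bring mTORC1 to the lysosome. Rragc was the most abundant per kb, at 463 ± 30.2 and 453 ± 20.6 CPM, and Rragd had the lowest p, at 37.3 ± 4.59 and 44.1 ± 8.98 CPM, with an edgeR p of 0.0704 and an adjusted p of 0.77. Of 10 genes for LC3-associated phagocytosis 9 were tested and 0 passed, with a median of -0.015. Rac2, a GTPase of the NADPH oxidase, had the lowest p, at 436 ± 33.8 and 392 ± 44.6 CPM, with an edgeR p of 0.0835 and an adjusted p of 0.77. The oxidase subunit Cyba was the most abundant per kb, at 1029 ± 164 and 925 ± 49.3 CPM. At an unadjusted p below 0.05 these 5 lists held 2, 1, 1, 0 and 0 genes in the order given, beside 5.47% of all genes tested. The 30 cell cycle genes and 20 interferon-stimulated genes had median SDs of log2 CPM within groups of 0.979 and 0.736. Their median log2 fold changes were -0.31 and -0.17, with 0 genes past the threshold in edgeR and 0 at an unadjusted p below 0.05. Of the first list Pcna, the sliding clamp of DNA replication, was the most abundant per kb, at 292 ± 104 and 263 ± 34.2 CPM, and Ccne1, a cyclin of S phase entry, had the lowest p, at 13.4 ± 14.7 and 8.21 ± 3.42 CPM. Bst2, the antiviral protein tetherin, was both in the second, at 381 ± 174 and 299 ± 69.7 CPM.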

How the data were processed

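Total RNA came from a TRIzol extraction, and the TruSeq RNA v2 kit, which does not mark strand, was used for sequencing (per the labels' protocols). Per the file headers, the counts the authors deposited are whole reads per gene from featureCounts 1.6.0 with Ensembl release 100 on GRCm38, not normalised. That command sets no strand, and no option for multiply aligned or overlapping reads. The submitters' processing notes name FastQC, STAR and mm10 without versions. How mates were treated is not given here, so a count is an alignment record and may not be an independent molecule, and limits for a count of 0 (3 counts of a library's total) cover counting error only.

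Columns were matched to labels by group letter and replicate number. Of 55401 gene IDs, 260 had no symbol and held 0.0044% of counts. The chi-square per gene between libraries was 5.18 to 185, so none was a repeat of another. The test was the quasi-likelihood F test of edgeR 4.0.16 (R 4.3.3; robust fit, TMM factors, filterByExpr), with age as the only term. The filter left 12620 genes with 99.9% of counts. P-values were two-sided and adjusted over all of these genes (Benjamini-Hochberg, threshold 0.05). CPM were computed with TMM factors, log2 CPM after a prior count of 2, and CPM per kb with the exon length in the deposited table. The common biological coefficient of variation was 21.7%. The test was also run on counts simulated from the levels and dispersions of this same fit, and the outcome of that run is not given here. DESeq2 1.42.0 and limma 3.58.1 were alternatives, besides other scalings, filters, a replicate block, a cell cycle covariate and libraries left out. Figures were drawn in Python 3.11.15 with matplotlib 3.10.9.

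All 33 genes are named by role. Of each further list, genes past the threshold are named or else the most abundant per kb and that of lowest p. Calcoco2, Tfeb, Tfe3, Mitf and the marker genes named were chosen after their values were seen. The genes and lists were chosen with earlier results of these data known.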

Additional observations from a re-analysis of the deposited data

Results flagged for a closer look

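Sqstm1 was at 756 CPM in young replicate 1, while the other young libraries ran from 836 to 872 CPM. The gap to the nearest young library was 0.683 of the range of the group, above the 95% critical value of Dixon's test for 6 values. Chance passes this limit in about 1 of 20 groups, and this was the only one of 66 tested, which were the 33 genes in each age group.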

How the results depend on the processing

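Over 22 alternatives, 0 of the 33 autophagy genes passed the threshold in any, and the lowest adjusted p was 0.20, for Rb1cc1 with the 3 libraries of highest cell cycle level left out. Their median log2 fold change ran from -0.028 to 0.025, and from -0.020 to 0.025 over the fits that leave out 1 library. Of 726 single-gene estimates 61 changed sign, all of differences that did not pass the threshold, and 22 genes kept their sign throughout. Rb1cc1 was positive in every alternative (0.22 to 0.39) and had an unadjusted p below 0.05 in 8 of 22. Over all genes, the number below 0.05 in those 8 ran from 618 of 12620 (library size scaling) to 2302 of 12744 (3 libraries of highest cell cycle level left out). The alternatives reuse the same libraries, so they are not independent of each other. The number of genes past the threshold over all genes, 2 in the main fit, was 4 without a low-count filter and 5 with a cell cycle covariate. It was 11 with DESeq2 and 5 with limma voom with quality weights. With 1 library left out it ran from 1 (without young replicate 4) to 5 (without young replicate 3). The cause was not tested. With the replicate number as a block it was 4, with 0 autophagy genes. In that fit Ulk1 had an edgeR unadjusted p of 0.0473, and 583 of 12620 genes were below 0.05. The deviations of same-numbered libraries correlated between -0.171 and 0.39, and the best match was the library of its own number for number 1 only, so the numbers were not taken as pairs. Atg10, with 161 to 254 counts a library, is the gene that depth limits most.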
